A study of Mus musculus with 77 samples.

Results

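The mRNA bound to Argonaute 2 (AGO2) was compared between stress-susceptible and control mice in the BNST (bed nucleus of stria terminalis). The comparison took every AGO2 mRNA pool labelled susceptible (4 pools) or control (5 pools), and so 9 of the 77 samples of the series, with values for 16587 genes. Each pool held the BNST of 3 male C57BL/6Crl (B6) mice aged 8 weeks (C57BL/6NCrl in the study's methods), a wild-type inbred strain with no transgene. Susceptible mice had gone through chronic social defeat stress (CSDS), a daily defeat by an aggressive mouse followed by sensory contact with it, and had afterwards shown a social interaction ratio below a border set from the controls of the same strain. Control mice lived beside an unfamiliar neighbour of the same strain without physical contact. The tissue was taken 6 to 8 days after the last day of CSDS. A further 5 pools came from resilient mice, which had been defeated and kept their social interaction, and they shared the estimate of the spread with the other groups. Because animals were pooled, the spread between pools is smaller than that between mice and does not show how single mice vary. Susceptibility was assigned by behaviour after defeat, not at random. Per the study, the defeated mice it profiled were extremes of that behaviour, with the lowest ratios in the susceptible group and the highest in the resilient group.

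AGO2 is the protein that holds a miRNA and the mRNA to which it has paired. It uses bases near the 5′ end of the miRNA, the seed, to find complementary sites, mostly in 3′ untranslated regions (UTRs), and bound transcripts are translated less or degraded. The BNST is a basal forebrain region of mostly GABAergic neurons that takes part in sustained anxiety and in the control of the hormonal stress response. An AGO2 immunoprecipitate of such tissue mixes RNA from neurons, glia and vessels.

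Values are the deposited log2 CPM, that is counts scaled to the size of each library, so a difference of 1 is a doubling. The control pools held between 4496314 and 6162932 reads on these genes (median 5092339) and the susceptible pools between 5146998 and 7604641 (median 6492655). Genes were called by an adjusted P below 0.05 from limma (Benjamini-Hochberg over all 16587 genes). No input or non-specific antibody sample was analysed here, so binding to AGO2 and the amount of the mRNA in the tissue cannot be told apart. In bulk tissue, fewer cells of a type and less RNA per cell cannot be told apart either.

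Markers of the labelled tissue were present in part. The control pools held high levels of the GABA-synthesising enzymes Gad1 (8.32 ± 0.06 log2 CPM, SD, n = 5) and Gad2 (8.20 ± 0.13), of the BNST and central amygdala kinase Prkcd (7.65 ± 0.53) and of the opioid precursor Penk (7.29 ± 0.32). Peptide genes of the BNST were low, with corticotropin-releasing hormone Crh at 0.27 ± 0.67, neurotensin Nts at 1.80 ± 0.55 and Cartpt at 0.56 ± 0.92 log2 CPM. The oestrogen receptor Esr1 lay at 1.94 ± 0.40. The glutamatergic marker Slc17a6 was measured at 6.62 ± 0.48. The summed level of 27 striatal neuron and dopamine genes was between 12.42 and 13.09 log2 CPM in control pools. That of 14 BNST and extended amygdala genes was between 8.85 and 9.28.

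In susceptible pools 383 genes were higher and 283 lower than in controls (4.02% of the genes tested, 2.31% higher and 1.71% lower). The median change of these genes was 1.458-fold for the higher and 1.504-fold for the lower ones, and the median log2 fold change over all genes was -0.01. For 341 of the higher and 249 of the lower genes, no susceptible pool overlapped a control pool. Such a gap was found for 10.9% of all genes (5.90% above and 5.05% below the controls). Of the called genes 57.5% were higher, a share that was 79.9% with values scaled to recovered reads and 68.5% with pools centred to a common median, but 49.6% when only the 9 pools compared were fitted, 50.6% with a pseudocount of 5 reads and 47.0% after a correction for exon count. An excess of higher over lower genes was thus not kept in all of them. The count of called genes depended on single pools. It was 36, 310 and 252 without susceptible pools 2, 3 and 4, between 221 and 438 without any 1 control pool, and 1112 without resilient pool 3. Of the 54 called genes that belong to the lists described here, 10 were called without susceptible pool 2, 21 without susceptible pool 4, and 24 without susceptible pool 3 or control pool 1. All 666 genes nevertheless kept their direction when any 1 pool was left out, and had an unadjusted P below 0.05 each time. By the criteria of the study, an unadjusted P below 0.05 and a fold change of at least 1.2, 1600 genes were higher and 1540 lower (18.9% of genes, 9.65% and 9.28%).

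The 12 higher and 12 lower genes with the smallest P and no overlap between groups are described first. Their adjusted P from limma lay between 0.00516 and 0.00916. Their exact permutation P was 0.00794 (two-sided), the smallest that 4 pools against 5 can give, but as genes without overlap were chosen this P is no further evidence. All 24 remained called when any 1 pool was left out.

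**Figure D1:**
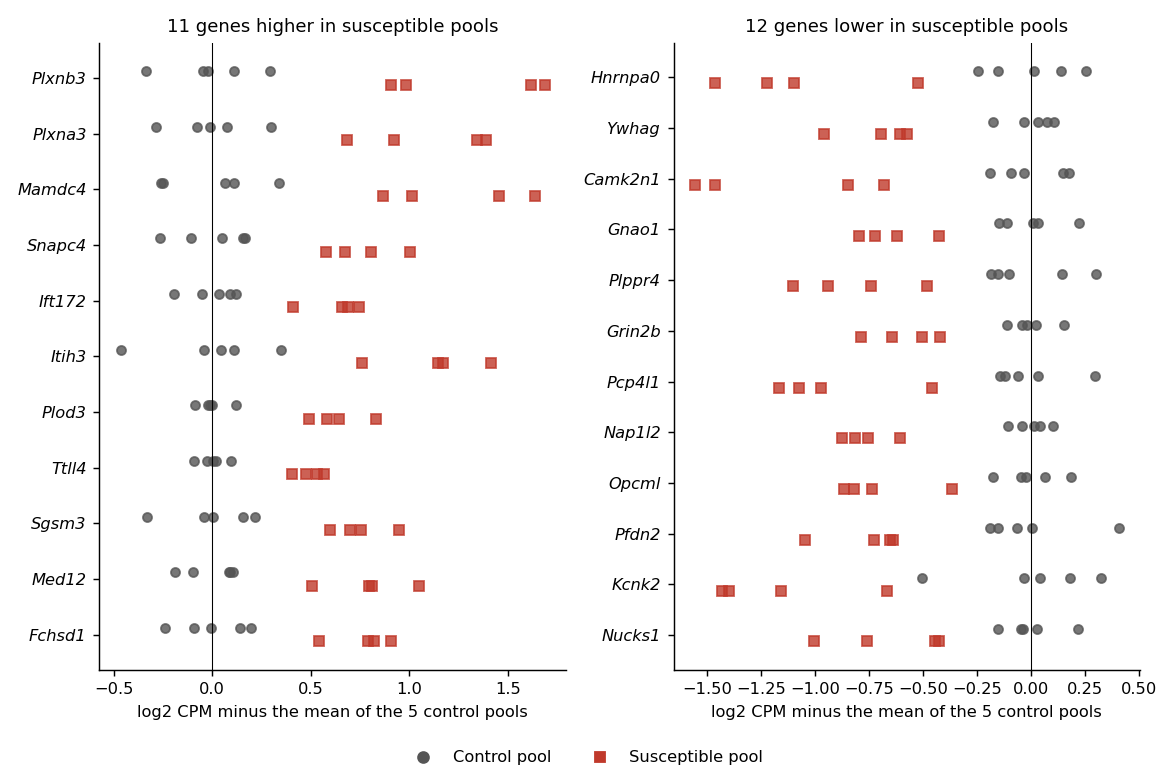
Log2 CPM of each susceptible pool (squares) and control pool (circles) minus the mean of the 5 control pools (horizontal axis), for 11 of the 12 higher genes (left) and the 12 lower genes (right) of smallest P. In each of the 23 genes shown all 4 susceptible pools lie on 1 side of all 5 control pools.

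The 2 higher genes of smallest P encode plexins, the receptors through which semaphorins steer axons and cell processes. Plxnb3, a plexin of the oligodendrocyte lineage (chrX:73757090-73772514, plus strand, GRCm38), lay at 6.01, 6.33, 6.46, 6.64 and 6.30 log2 CPM in the control pools and at 7.33, 8.03, 7.25 and 7.96 in the susceptible pools. The lowest susceptible pool stood above the highest control pool. The gene was thus 2.46-fold higher (log2 fold change 1.30, SE 0.17, limma adjusted P = 0.00516). Plxna3, a co-receptor for class 3 semaphorins, lay at 5.40, 5.78, 5.55, 5.20 and 5.47 log2 CPM in control pools and at 6.16, 6.82, 6.86 and 6.40 in susceptible pools. It rose by 1.08 (SE 0.14, limma adjusted P = 0.00516), again with no overlap. Plxnb1, the receptor for semaphorin 4D, was between 6.03 and 6.31 log2 CPM in controls and between 6.56 and 7.37 in susceptible pools (log2 fold change 0.72, SE 0.14, limma adjusted P = 0.0122). Of 31 plexins, neuropilins and semaphorins measured, these 3 were higher (9.68%, against 2.31% of all genes) and none was lower. The median log2 fold change of the 31 genes was -0.03 (-0.15 to 0.12 over the alternatives, and so of either sign). At least 3 of them were called with any 1 pool left out.

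Snapc4 and Med12 act in the synthesis of RNA. Snapc4, a subunit of the complex that starts transcription of small nuclear RNA genes, was between 6.13 and 6.56 log2 CPM in control pools and between 6.97 and 7.40 in susceptible pools (log2 fold change 0.76, SE 0.11). Med12, of the kinase module of the Mediator complex, lay between 5.98 and 6.27 in controls and between 6.67 and 7.21 in susceptible pools, a change of 0.79 (SE 0.13). Both genes were higher in every susceptible pool than in any control pool. Med24 also rose, by 0.59 (SE 0.10), and the remaining 31 of 33 Mediator genes did not pass (6.06% higher, against 2.31% of all genes), with a median of -0.03 over all 33. The call of Med24 was lost without susceptible pool 2. That list was drawn up after the values of Med12 had been seen.

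Ift172, which carries cargo along the cilium as part of intraflagellar transport, was between 6.60 and 6.92 log2 CPM in controls and between 7.21 and 7.54 in susceptible pools (log2 fold change 0.63, SE 0.09). Ift122 of the same machinery rose by 0.43 (SE 0.10, limma adjusted P = 0.0286). They were 2 of 21 intraflagellar transport genes (9.52%, against 2.31% of all genes), a list also made after values were seen. The other 19 did not pass, and the list had a median of 0.11. Without susceptible pool 2 only 1 of the 21 was called, and between 1 and 3 without any other pool. Ttll4, an enzyme that adds glutamate chains to tubulin, rose by 0.49 (SE 0.08) with the smallest SE of the 24 genes, from 6.76 to 6.94 log2 CPM in controls and from 7.25 to 7.41 in susceptible pools.

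Among the remaining higher genes, Mamdc4 rose by 1.24 (SE 0.17). Itih3, a heavy chain that is coupled to hyaluronan in the extracellular matrix, rose by 1.12 (SE 0.17) and Plod3, a collagen lysyl hydroxylase, by 0.64 (SE 0.10). Sgsm3, a GTPase-activating protein of Rab proteins, rose by 0.75 (SE 0.12) and Fchsd1, an F-BAR and SH3 domain protein, by 0.76 (SE 0.13). Each of these genes was higher in all 4 susceptible pools than in all 5 control pools.

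Among the lower genes of smallest P, Hnrnpa0, an RNA-binding protein encoded by a gene with 1 exon (chr13:58125879-58128556, minus strand), lay at 6.22, 6.61, 6.72, 6.31 and 6.48 log2 CPM in the control pools and at 5.95, 5.00, 5.37 and 5.25 in the susceptible pools. Susceptible pool 1 stood nearest the controls and the groups did not overlap. The gene was 2.11-fold lower (log2 fold change -1.08, SE 0.15, limma adjusted P = 0.00623). Camk2n1, an inhibitor of the synaptic kinase CaMKII (chr4:138454314-138460123, plus strand), lay at 9.68, 9.92, 9.58, 9.95 and 9.74 log2 CPM in control pools and at 9.09, 8.22, 8.31 and 8.93 in susceptible pools. The pools fell into separate ranges, with susceptible pools 2 and 3 the lowest, and the fold change was 2.20 (log2 fold change -1.14, SE 0.18, limma adjusted P = 0.00869).

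Kcnk2, the TREK-1 channel that sets background potassium conductance, lay at 6.64, 6.17, 6.72, 6.86 and 7.00 log2 CPM in controls and at 6.01, 5.52, 5.28 and 5.25 in susceptible pools. Control pool 2 and susceptible pool 1 differed by little, and the groups still did not overlap (log2 fold change -1.16, SE 0.20, limma adjusted P = 0.00911). Grin2b, the GluN2B subunit of the NMDA receptor, lay at 9.57, 9.30, 9.43, 9.39 and 9.37 log2 CPM in controls and at 8.91, 8.77, 8.99 and 8.63 in susceptible pools. Every susceptible pool was below every control pool, and the gene fell by 0.59 (SE 0.09, limma adjusted P = 0.00869). Grin2a, the GluN2A subunit, fell by 0.48 (SE 0.12, limma adjusted P = 0.033). The other 23 of 25 glutamate receptor genes did not pass (8.00% lower, against 1.71% of all genes, and a median log2 fold change of -0.13), and without susceptible pool 2 only 1 gene was called. Without any other pool between 1 and 4 genes were called lower. Of 51 potassium channel genes, Kcnt1, a sodium-activated channel, was higher (0.53, SE 0.14, limma adjusted P = 0.0393) and Kcnk2 lower, with a median of -0.22. This is 1.96% of the list in each direction, close to the 2.31% higher and 1.71% lower of all genes. The call of Kcnt1 was lost without susceptible pool 2, 3 or 4, without control pool 1, 2, 3 or 5, and without resilient pool 1.

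Ywhag, a 14-3-3 adaptor that binds phosphorylated proteins, lay at 8.74, 8.88, 8.85, 8.81 and 8.60 log2 CPM in control pools and at 8.20, 7.82, 8.17 and 8.08 in susceptible pools. With no overlap, Ywhag fell by 0.71 (SE 0.10, limma adjusted P = 0.00631). Of 7 14-3-3 genes, a list added after Ywhag had been seen, Ywhae (-0.78, SE 0.17), Ywhaz (-0.66, SE 0.12) and Ywhab (-0.51, SE 0.14) were lower too (57.1% of the list, against 1.71% of all genes), and the list had a median of -0.51. Between 2 and 5 of the 7 were called when single pools were left out. Gnao1, the G protein alpha subunit most abundant in brain, fell by 0.64 (SE 0.10) and Gnaz, of the same inhibitory class, by 0.74 (SE 0.15). They were 2 of 24 G protein subunit genes, of which none was higher (8.33% lower, against 1.71% of all genes, median -0.25), and the call of Gnaz was lost without susceptible pool 2 or 4. Plppr4, a membrane protein of glutamatergic synapses, fell by 0.82 (SE 0.13) and Opcml, an adhesion protein of neuronal membranes, by 0.70 (SE 0.12). The remaining lower genes were Pcp4l1 (-0.92, SE 0.15), the neuronal nucleosome assembly factor Nap1l2 (-0.76, SE 0.13), the prefoldin chaperone subunit Pfdn2 (-0.77, SE 0.13) and the chromatin protein Nucks1 (-0.66, SE 0.11). Their ranges in susceptible and control pools did not overlap.

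Because AGO2 is guided by miRNAs, matches to miRNA seeds were searched in the longest 3′ UTR annotated for each gene. The 10 most abundant AGO2-bound miRNAs of the control pools held 46.4% of their miRNA reads, and 9 of them were matched to RefSeq (GRCm38.p6) and fell into 7 families by seed. They were miR-434-3p, let-7e-5p, miR-22-3p, miR-92b-3p, let-7d-5p, miR-30a-5p, miR-125a-5p, miR-128-3p, let-7i-5p and miR-30d-5p. The mature sequences of the 4 miRNAs whose sites are printed next are written 5′ to 3′ with the seed, bases 2 to 8, in capitals.
miR-30a-5p: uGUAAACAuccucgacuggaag
miR-22-3p: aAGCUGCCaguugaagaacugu
miR-125a-5p: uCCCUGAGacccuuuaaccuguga
miR-128-3p: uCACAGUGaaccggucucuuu

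Of the 12 lower genes above, 5 held a match of all 7 seed bases followed by an A to 1 of the 7 families, as did 4 of the 12 higher genes, and 1 site of each lower gene is shown to give the bases on which a guided AGO2 could pair. The sites are read from GRCm38 on the strand of the gene, 5′ to 3′, with the seed match and the A in capitals. They lie at chr4:138457302-138457325 (plus strand, Camk2n1), chr3:117319487-117319510 (minus strand, Plppr4), chr6:135715675-135715698 (minus strand, Grin2b), chr9:28922199-28922222 (plus strand, Opcml) and chr1:189208574-189208597 (minus strand, Kcnk2), all in annotated 3′ UTRs.
Camk2n1, miR-30a-5p: gttcccaaTGTTTACAtaatttca
Plppr4, miR-30a-5p: aaaaaattTGTTTACAttccacag
Grin2b, miR-22-3p: aagctatgGGCAGCTAaagttggt
Opcml, miR-125a-5p: ctgcctccCTCAGGGAcctttttc
Kcnk2, miR-128-3p: cttgggatCACTGTGAgttttgca

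A match to the seed of miR-30 (TGTTTAC on the mRNA strand) was held by 29.0% of 272 lower genes and 9.01% of 355 higher genes, against 17.3% of all 13886 protein-coding genes with an annotated 3′ UTR. For miR-92b-3p (GTGCAAT) these shares were 11.4%, 3.94% and 8.30%. The share was in the other order for miR-22-3p (GGCAGCT), with 18.4% of lower, 22.8% of higher and 17.9% of all genes, for let-7 (CTACCTC), with 8.82%, 11.6% and 12.2%, and for miR-125a-5p (CTCAGGG), with 13.2%, 18.9% and 17.4%. For miR-128-3p (CACTGTG) the shares were 27.6%, 23.9% and 25.2%, and for miR-434-3p (GGTTCAA) 7.72%, 4.79% and 7.40%. A match to any of the 7 was found in 65.1% of lower and 55.2% of higher genes. The longest 3′ UTR had a median of 1862 bases in lower, 944 in higher and 1433 in all genes. Per 1000 bases of UTR the lower genes held 0.584 matches, the higher genes 0.840 and all genes 0.688. For miR-30 alone the lower genes held 0.147, the higher 0.080 and all genes 0.112 per 1000 bases, and for miR-92b-3p 0.051, 0.028 and 0.049. For miR-128-3p the order of the shares turned per 1000 bases, with 0.148 in lower, 0.226 in higher and 0.176 in all genes, as it did by little for miR-434-3p (0.034, 0.036 and 0.043). The higher genes also held more per 1000 bases than the lower for miR-22-3p (0.198 against 0.094), let-7 (0.094 against 0.043) and miR-125a-5p (0.178 against 0.068). A match describes the sequence and is not evidence that the site is used, and these shares were not tested.

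The miRNAs themselves were compared in 3 susceptible and 5 control AGO2 pools. At an adjusted P below 0.05, 0 of 788 miRNAs were called by limma, and 39 had an unadjusted P below 0.05. The study adjusted its miRNA data for surrogate variables, and no such adjustment was made in this fit. For the same groups it reports the miR-99b group as lower at an adjusted P below 0.05 from limma. The log2 fold change was -0.03 for miR-30a-5p (SE 0.10), 0.06 for miR-22-3p (SE 0.11), -0.37 for miR-92b-3p (SE 0.15) and -0.34 for miR-125a-5p (SE 0.10, limma adjusted P = 0.602).

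The called genes differed from the rest in a feature of their structure. The higher genes had a median of 21 exons (quartiles 15 and 28) and the lower genes 5.5 (3 and 9), against 9 over all genes with an annotated 3′ UTR, counting the exons of the transcript with the most. Plxnb3 has 35 exons, Plxna3 33, Med12 46 and Ift172 48, whereas Hnrnpa0 and Nap1l2 have 1, Camk2n1 has 2, and Ywhag and Pcp4l1 have 3. Of 278 genes with 1 exon, 0 were higher and 29 lower by limma (10.4%, median log2 fold change -0.36). Of 702 genes with 31 or more exons, 71 were higher (10.1%) and 1 lower (median 0.16). Across the 13886 genes, which are not independent replicates, exon count and log2 fold change had a Spearman rho of 0.414.

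**Figure D2:**
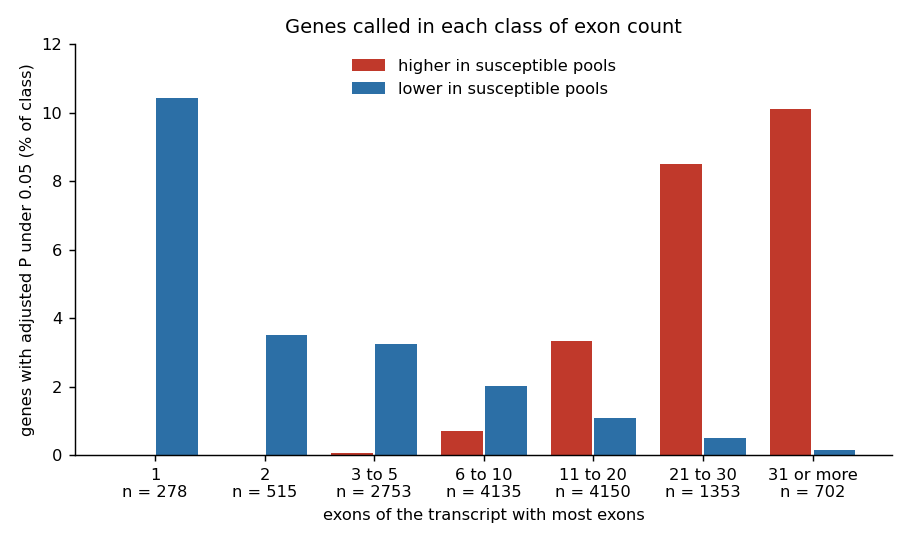
Share of genes with an adjusted P below 0.05 that were higher (red) or lower (blue) in susceptible pools (vertical axis, percent of the class), by the exon count of the gene (horizontal axis, with the number of genes). The share higher goes from 0 of 278 genes with 1 exon to 71 of 702 genes with 31 or more, and the share lower from 29 to 1.

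The coding sequence was also longer in the higher genes (median 2559 bases) than in the lower genes (1028 bases) or in all genes (1452 bases), and the 3′ UTR made up a smaller share of the transcript (25.5%, 62.4% and 48.2%). The GC content of the transcript was 55.2%, 49.0% and 49.8%. With genes split into 3 classes of equal size by coding length, genes with many exons had a higher median log2 fold change than genes with few in each class, 0.03 against -0.27 in the shortest and 0.16 against -0.11 in the longest. The mean level had a median of 6.09 log2 CPM for higher, 6.18 for lower and 4.93 for all genes. This gradient was seen pool by pool. The median deviation from the control mean of genes with 18 or more exons minus that of genes with 5 or fewer was between -0.09 and 0.05 in the control pools. It was 0.19, 0.46, 0.35 and 0.41 in susceptible pools 1 to 4 and between 0.11 and 0.59 in resilient pools, so every defeated pool was above every control pool. The measure takes its zero from these control pools, which by itself keeps them near 0. When each pool was corrected for its trend with exon count, an alternative chosen after the gradient had been seen, 345 genes were called (162 higher and 183 lower). Of the 666 genes 280 were among them, with all 24 named genes, and 28 of the 54 called list members. The calls lost were those of Ift122, Kcnt1, Gnaz and Ywhab above and, of the lists described next, those of Lrp1, Scap, Lss, Dicer1, Cplx2, Vamp2, Syt11, Ppp3r1, Sst, Cacng2, Scn2b, Errfi1, Rps26, Mal, Cnp, Cldn11, Gjb1, Ermn, Thy1, Nefl and Sox9, and that of Epdr1, from a list of genes that the study names.

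**Figure D3:**
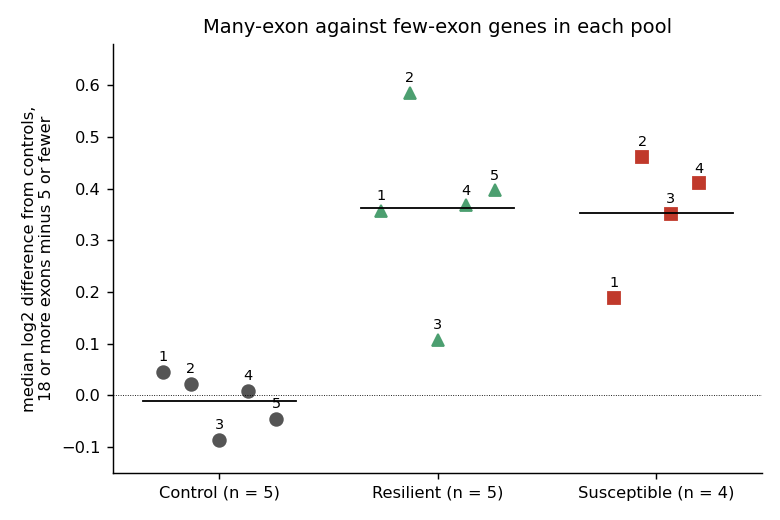
Median log2 difference from the control mean of genes with 18 or more exons minus that of genes with 5 or fewer (vertical axis) in each control, resilient and susceptible pool (numbered points, horizontal lines for group means). The susceptible pools lie between 0.19 and 0.46 and the control pools between -0.09 and 0.05.

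Among 25 genes of cholesterol and lipid handling, 4 were higher (16.0%, against 2.31% of all genes) and none lower, with a median of 0.12. They were the lipoprotein receptor Lrp1 (0.51, SE 0.13), the transcription factor Srebf1 (0.59, SE 0.13) with its escort Scap (0.49, SE 0.12), and the sterol-forming enzyme Lss (0.43, SE 0.11), at adjusted P-values between 0.0225 and 0.0356 from limma. The median exon count of the list was 10. Without susceptible pool 2 none of the 4 was called, nor without control pool 1. Between 0 and 4 genes of the list were called higher without any pool other than susceptible pool 2.

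Among 25 genes of the Argonaute and miRNA machinery, 2 were higher (8.00%, against 2.31% of all genes). Dicer1, the enzyme that cuts precursors to mature miRNAs, was between 8.35 and 8.49 log2 CPM in controls and between 8.69 and 8.82 in susceptible pools (log2 fold change 0.35, SE 0.08, limma adjusted P = 0.0316). Pan2, a deadenylase that shortens the tail of miRNA targets, rose by 0.56 (SE 0.10, limma adjusted P = 0.011). Both calls were lost without susceptible pool 2. That of Pan2 was kept without any other pool, but that of Dicer1 was also lost without susceptible pool 3 or 4 and without any 1 control pool. Between 1 and 3 genes of the list were called without any pool other than susceptible pool 2. The mRNA of Ago2, the protein used for the immunoprecipitation, was at 8.80 ± 0.12 log2 CPM in controls and 8.81 ± 0.14 in susceptible pools (SD, n = 5 and 4, limma adjusted P = 0.935). Ago1 had a log2 fold change of 0.22 (SE 0.08) and Ago3 of 0.24 (SE 0.09), and neither passed.

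Of 35 genes of the synaptic vesicle and its release, 5 were lower (14.3%, against 1.71% of all genes) and none higher, and 31 of the 35 had a negative log2 fold change (median -0.23). Cplx2, a complexin that clamps vesicle fusion, lay at 9.59, 9.54, 9.43, 9.79 and 9.61 log2 CPM in controls and at 9.41, 8.53, 8.22 and 8.83 in susceptible pools. Susceptible pool 1 was just below the lowest control pool and the other pools were far below (log2 fold change -0.85, SE 0.19, limma adjusted P = 0.0255). The others were Syn1 (-0.56, SE 0.14), a coat protein of vesicles, the fusion protein Vamp2 (-0.51, SE 0.14), the active zone scaffold Pclo (-0.51, SE 0.13) and Syt11 (-0.48, SE 0.12). None of the 5 calls remained without susceptible pool 2, and between 0 and 8 genes were called without another pool. Of 19 genes of GABA receptors and their synapse, 3 were lower (15.8%, against 1.71% of all genes). These were the receptor subunits Gabra2 (-0.79, SE 0.21) and Gabrb2 (-0.44, SE 0.10) and the adhesion protein Nlgn2 (-0.52, SE 0.12), with a median of -0.19 for the list. Without susceptible pool 2 none of them was called, nor without susceptible pool 4 or control pool 2. Of 20 postsynaptic scaffold genes 0 were called, although 17 had a negative log2 fold change (median -0.39) and 9 were lower by the criteria of the study (9.28% of all genes). The summed level of 14 general neuron markers was between 11.37 and 11.76 log2 CPM in susceptible pools and between 11.84 and 12.03 in controls. Its part in the results on synapse, receptor and channel genes was not tested.

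Calcium signalling held 2 lower genes of 34 (5.88%, against 1.71% of all genes), both parts of the phosphatase calcineurin. The catalytic subunit Ppp3ca lay at 9.51, 9.37, 9.23, 9.98 and 9.40 log2 CPM in control pools and at 9.23, 8.26, 8.12 and 8.63 in susceptible pools. Susceptible pool 1 was nearly as high as control pool 3 and the other susceptible pools were lower. The difference on the log2 scale was -0.94 (SE 0.20, limma adjusted P = 0.0198). The regulatory subunit Ppp3r1 fell by 0.52 (SE 0.14, limma adjusted P = 0.0492). Neither call remained without susceptible pool 2 or without susceptible pool 3. Ntrk2 and Ntrk3, the receptors for brain-derived neurotrophic factor and neurotrophin 3, were 2 of 10 neurotrophin genes (1.71% of all genes were lower) and were lower in every susceptible pool than in any control pool. Ntrk2 was between 8.15 and 8.47 log2 CPM in susceptible pools and between 8.72 and 8.86 in controls, and Ntrk3 between 7.19 and 7.53 and between 7.70 and 8.19. Bdnf, the ligand of Ntrk2, was low and overlapped (1.87 ± 0.94 and 1.51 ± 0.71 log2 CPM, SD, n = 5 and 4). Calls in this list ranged from 0 without susceptible pool 2 to 2.

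In further lists single genes were lower, 1 gene being between 1.30% of 77 ribosomal proteins and 12.5% of 8 sodium channel genes (1.71% of all genes). Foxp1, a transcription factor of striatal and extended amygdala neurons, fell by 0.99 (SE 0.22, limma adjusted P = 0.0236). Drd1 (-0.62, SE 0.32) and Pde10a (-0.51, SE 0.31) of the same list of 27 striatal neuron and dopamine genes did not pass. The median of that list was -0.53, with 24 of the 27 negative. Its summed level was between 12.42 and 13.09 log2 CPM in controls and between 11.63 and 12.83 in susceptible pools, and these ranges overlapped. The peptide Sst, which marks a class of inhibitory neurons, was between 4.37 and 4.81 log2 CPM in controls and between 3.65 and 4.21 in susceptible pools (log2 fold change -0.65, SE 0.18, limma adjusted P = 0.0482). Jund, a subunit of the AP-1 factor, fell by 0.99 (SE 0.22, limma adjusted P = 0.0227) as 1 of 18 immediate early genes, of which Fos (-0.24, SE 0.38) and Egr1 (-0.83, SE 0.35) did not pass. The median of these 18 genes was -0.53, with 15 negative, and 8 were lower by the criteria of the study (9.28% of all genes). Their summed level overlapped, between 8.95 and 10.25 log2 CPM in controls and between 8.53 and 9.42 in susceptible pools. Cacng2, the stargazin that escorts AMPA receptors, had a log2 fold change of -0.97 (SE 0.26, limma adjusted P = 0.0484), the sodium channel subunit Scn2b of -0.51 (SE 0.11) and the glucocorticoid-induced kinase inhibitor Errfi1 of -0.46 (SE 0.12). None of these 6 calls remained without susceptible pool 2 or without susceptible pool 4. In the respiratory chain 0 of 76 nuclear genes were called by limma, with a median log2 fold change of -0.10 for the 37 genes of complex I and -0.13 for the 39 of complexes II to V, and by the criteria of the study 1 was higher and 10 were lower (9.65% and 9.28% of all genes). Of 77 cytosolic ribosomal proteins Rps26 alone was lower (-0.53, SE 0.14), a call lost without any 1 control or susceptible pool, and the median was -0.12.

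**Figure D4:**
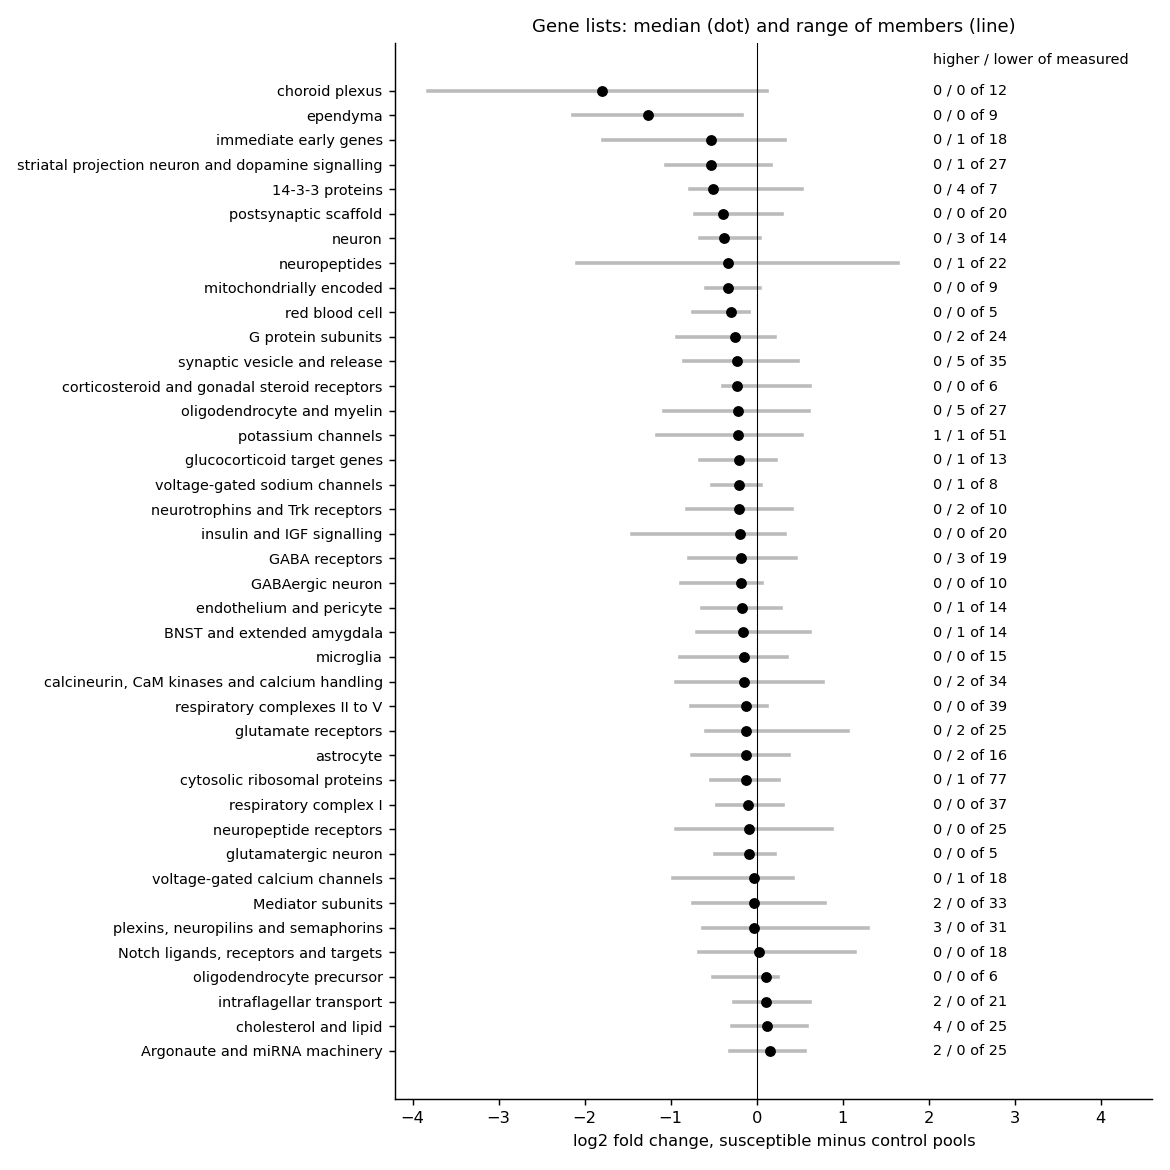
Median (dot) and range (line) of the log2 fold change, susceptible minus control pools (horizontal axis), of the measured members of 40 gene lists, with the number higher and lower at an adjusted P below 0.05. Choroid plexus and ependyma have the lowest medians, -1.80 and -1.27, with no gene called, and the Argonaute and miRNA machinery the highest, 0.15.

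Of 27 oligodendrocyte and myelin genes, 5 were lower (18.5%, against 1.71% of all genes) and none higher (median -0.22). They were Mal (-0.63, SE 0.12) and Cnp (-0.44, SE 0.10), a proteolipid and an enzyme of myelin, the tight junction protein Cldn11 (-0.46, SE 0.12), the gap junction protein Gjb1 (-0.55, SE 0.15) and Ermn (-0.51, SE 0.12). Mbp, a main structural protein of myelin, had a log2 fold change of -0.03 (SE 0.12). The summed level of the 27 genes was between 12.26 and 12.73 log2 CPM in controls and between 11.74 and 12.32 in susceptible pools, and these ranges overlapped. The 5 calls were lost without susceptible pool 2, and also after the correction for exon count. Between 1 and 7 genes of the list were called lower without any other pool.

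Of 14 general neuron markers, Rbfox3 (-0.66, SE 0.16), the surface protein Thy1 (-0.51, SE 0.11) and the neurofilament Nefl (-0.42, SE 0.11) were lower (21.4%, against 1.71% of all genes), and the list had a median of -0.38, with 12 of the 14 negative. Their summed level did not overlap between groups, and the most abundant gene was Map2 (-0.29, SE 0.11). Of 16 astrocyte markers, the glutamate transporter Slc1a2 (-0.42, SE 0.10) and the transcription factor Sox9 (-0.75, SE 0.20) were lower (12.5%), with a median of -0.13. Rgs5 of pericytes fell by 0.63 (SE 0.12) as 1 of 14 vessel markers (7.14%). Without susceptible pool 2 none of these 6 calls remained. Those of Rbfox3, Thy1 and Nefl were also lost without susceptible pool 4, and those of Slc1a2 and Sox9 without susceptible pool 3. Of 15 microglia, 6 oligodendrocyte precursor, 10 GABAergic, 5 glutamatergic and 5 red cell markers 0 were called by limma, and by the criteria of the study 1 microglial gene was higher and 3 microglial and 4 GABAergic genes were lower (9.65% and 9.28% of all genes).

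The list medians farthest from 0 were those of tissue at the ventricle beside the BNST. The choroid plexus list had a median of -1.80 over 12 genes and the ependyma list of -1.27 over 9 genes, and 8 and 6 genes were lower by the criteria of the study, against 9.28% of all genes, but none by adjusted P. Ttr, the transthyretin that defines choroid plexus, lay at 6.81, 4.40, 6.46, 6.82 and 0.61 log2 CPM in controls and at -0.19, 0.24, -0.31 and 5.04 in susceptible pools. It was high in 4 of 5 control pools and in 1 of 4 susceptible pools, so that the groups overlapped (limma adjusted P = 0.105, exact permutation P = 0.0714). The summed choroid plexus level was between 6.50 and 8.22 log2 CPM in controls and between 6.40 and 7.17 in susceptible pools. Its most abundant gene was Prlr, which had a log2 fold change of 0.12 (SE 0.29). Kcne2 had 0 reads in susceptible pools 1, 2 and 3, Aqp1 and Kcnj13 in pools 1 and 2 and Folr1 in pool 3, while in controls 1 gene in pool 2 and 2 genes in pool 5 had 0 reads. The summed ependyma level was between 5.28 and 6.56 log2 CPM in controls and between 4.72 and 5.26 in susceptible pools, without overlap, and its most abundant gene was Rsph1 (-0.17, SE 0.19). Across the alternatives the choroid plexus median ranged from -2.43 (without control pool 5) to -0.39 (with a filter on the mean level, which removes its low genes). The part of myelin, neurons, striatal neurons, astrocytes, choroid plexus and ependyma in the other results was not tested.

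**Figure D5:**
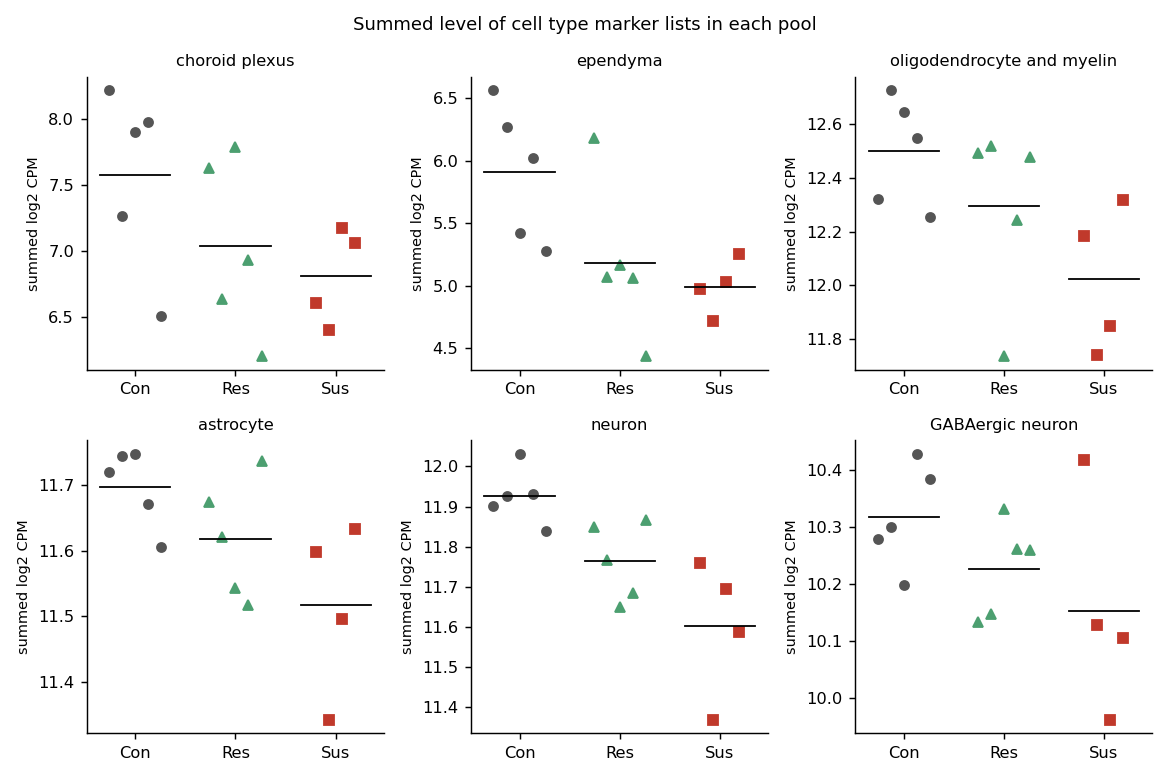
Summed level of 6 marker lists (vertical axes, log2 CPM) in each control (Con, circles), resilient (Res, triangles) and susceptible pool (Sus, squares), with group means as lines. The axes do not start at 0. The 4 susceptible pools lie below all controls for ependyma (4.72 to 5.26 against 5.28 to 6.56) and neurons (11.37 to 11.76 against 11.84 to 12.03) and overlap them for the other 4 lists.

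Reads on miRNA gene models, which in an mRNA library come from precursors or host transcripts, were called in 1 direction. Of 130 such models 10 were higher and 0 lower by limma (7.69% higher, against 2.31% of all genes). Of these, 9 lay in the imprinted miRNA cluster of chromosome 12 (chr12:109709060-109747960), where 34 of 35 models had a positive log2 fold change (median 0.56), and the only other was Mir29a. The 95 models outside the cluster were also mostly positive, 70 against 25 negative, with a median of 0.38 (-0.01 over all genes). A positive change was thus not particular to the cluster. The cluster was singled out after the values had been seen. Its summed level was 7.64, 7.55, 7.56, 7.52 and 7.53 log2 CPM in control pools and 8.02, 8.18, 7.96 and 8.31 in susceptible pools, without overlap. The highest level of a model in the cluster was 4.08 log2 CPM, so each rests on few reads. Mirg, the noncoding host transcript that overlaps part of the cluster, rose from 9.06 ± 0.05 to 9.57 ± 0.15 log2 CPM (SD, n = 5 and 4, log2 fold change 0.52, SE 0.12, limma adjusted P = 0.0236). Reads of the models and of Mirg could not be separated where they overlap. Meg3 (0.13, SE 0.12) and Rian (0.12, SE 0.11), noncoding genes upstream in the same imprinted domain, did not pass.

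Among the genes with the most reads in the control pools were Gm42418, Malat1, mt-Rnr2, mt-Rnr1, Mir6236, Lars2, Snhg11, Gm15564 and Sptbn1. Their log2 fold changes ran from -0.70 for Gm42418 to -0.02 for Snhg11 and 0 of these 9 passed, with 3 of them at an unadjusted P below 0.05 from limma (Lars2, Gm15564 and Gm42418). Gm42418, Mir6236, Lars2 and Gm15564 overlap or resemble ribosomal RNA sequence, so their counts are uncertain.

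The resilient pools are compared with the same controls, against which 324 genes (1.95%) were called. Plxnb3 was 1.26 higher than in controls on the log2 scale, against 1.30 in susceptible pools, Snapc4 0.73 against 0.76 and Camk2n1 0.74 lower against 1.14 lower. Compared directly, 0 genes were called between susceptible and resilient pools by limma. An unadjusted P below 0.05 was reached by 401 genes (2.42%) and the criteria of the study by 355 (2.14%). Among the 24 named genes the largest such difference was in Hnrnpa0 (-0.48, SE 0.15), followed by -0.40 in Pcp4l1, Pfdn2 and Camk2n1.

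In whole blood of 5 susceptible and 5 control B6 mice, which are single animals and not the pools of this comparison, 505 of the called genes were measured. By the criteria of the study 18 of them (3.56%) passed, against 3.71% of all 13084 blood genes. At an adjusted P below 0.05, 0 blood genes were called by limma, and 497 had an unadjusted P below 0.05. Nucks1 was measured at 7.30 and 7.48 log2 CPM in control and susceptible blood (log2 fold change 0.18, SE 0.15) and Hnrnpa0 at 5.57 and 5.60 (0.04, SE 0.12). Pcp4l1, lower in the AGO2 pools, was at 1.24 and 2.26 in blood (1.02, SE 0.43, limma unadjusted P = 0.0312, adjusted P = 0.994). Camk2n1, also lower in the AGO2 pools, had a blood log2 fold change of 0.82 (SE 0.59) and Pfdn2 of -0.22 (SE 0.19).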

How the data were processed

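Per the study's methods, RNA was isolated after AGO2 immunoprecipitation, sequenced from stranded mRNA libraries, aligned to GRCm38 with STAR and counted on gene exons with HTSeq. The strand setting of the count is not given in the sources used here. The authors kept genes of 1 CPM in at least 3 samples and deposited log2 CPM from voom (prior of 0.5 reads). All values corresponded to whole reads within 0.0001 reads, and the totals of these reads are the depths given. The authors' correction for cohort came after these values and cohort was not used here. All p-values measure the spread between pools.

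Limma 3.58.1 in R 4.3.3 was fitted to the 14 AGO2 mRNA pools as deposited, with 3 groups and a mean-variance trend. Tests were two-sided. Single genes were also compared by an exact permutation test over 126 splits of 9 pools. GENCODE M21 (GRCm38) matched 16541 of 16587 gene IDs. The deposited AGO2 miRNA and blood values (log2) were fitted in the same way. The fit was tested on simulated data. Python 3.11.15 and matplotlib 3.10.9 were used for counting seeds and drawing.

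Genes were named if they were among the 12 higher or 12 lower genes of smallest p past an adjusted p of 0.05 and a fold of 1.2, with a symbol and no overlap between pools. Others were named as members of lists or as the 10 most abundant genes, and some that the rule names are not reported here. The genes compared and the lists were chosen with earlier results of these data known, and the 4 lists of Mediator, 14-3-3, intraflagellar transport and G protein subunit genes after their values had been seen. A list of 18 genes that the study names for this comparison was counted too. It was chosen by the study on these samples, and 5 of its genes were lower (Epdr1, Ntrk2, Cldn11, Ppp3ca and Ntrk3; 27.8%, against 1.71% of all genes) and none higher. None of the 5 was called without susceptible pool 2, and between 1 and 6 genes of the list were lower without any other pool. By the criteria of the study 3 were higher and 7 lower (9.65% and 9.28% of all genes). Of 18 Notch, 20 insulin and IGF, 25 neuropeptide receptor, 6 steroid receptor and 9 mitochondrially encoded genes 0 were called, with medians of 0.03, -0.19, -0.09, -0.22 and -0.33, and of 14 BNST markers and 22 neuropeptides 1 each (Sst). Alternatives varied the trend, scaling, weights, filter, pseudocount, block and pools. Fold-change columns of the authors were not used.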

Additional observations from a re-analysis of the deposited data

Results flagged for a closer look

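Values per pool, among them the summed levels of gene lists, were examined for a pool that stood apart within its group of 4 or 5. This held in 6 of 132 tests, and chance flags about 1 in 20. In susceptible pool 3 the glutamatergic neuron genes lay at 7.60 log2 CPM, against 6.81 in the next pool. The neurotrophins and Trk receptors lay at 9.73 log2 CPM in susceptible pool 4 (next pool 9.89). Susceptible pool 1 held the highest summed levels of postsynaptic scaffold genes (12.18 log2 CPM, next pool 11.88) and of G protein subunits (11.31, next pool 11.07). Control pool 5 was low for insulin and IGF signalling genes (11.65 log2 CPM, next pool 11.79), and control pool 3 was high for cholesterol and lipid genes (11.07, next pool 11.00).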

How the results depend on the processing

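The 666 called genes (57.5% of them higher) became 209 without a mean-variance trend, 1428 with pool weights, 1090 when only the 9 pools compared were fitted, 345 after a correction of each pool for exon count (chosen after seeing the data) and 248 with a replicate block in the fit. Leaving out 1 pool gave between 36 (without susceptible pool 2) and 1112 genes (without resilient pool 3). The cause was not tested. All 666 genes kept their direction in each of these, and the 24 named genes were called in every alternative that fitted them. Of 54 called list members, 10 remained without susceptible pool 2 and 28 after the exon correction. The count by the criteria of the study stayed within 1.5 times of 3140, and the exon gradient (0.36) did not move beyond the spread between pools. The share of higher genes was 79.9% of 931 when scaled to recovered reads and 68.5% of 717 when pools were centred to a common median, but 47.0% after the exon correction, 49.6% with only the 9 pools compared and 50.6% with a pseudocount of 5 reads.

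Replicate numbers did not pair the pools. Deviations of susceptible and control pools of the same number correlated at -0.04, -0.13, 0.14 and 0.01, and 1 of 4 correlated best with its own number. With the block, 230 of the 248 called genes were among the 666. Depth limits genes of few reads, such as choroid plexus markers and miRNA models.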
